A study of Mus musculus with 4 samples.

Results

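Transcripts of 10 genes of the cohesin and condensin machinery were examined in hematopoietic stem cells (HSCs) with and without *Id2*. The genes were taken by symbol from the 19354 genes in the deposited table, and all 10 had a single row: the 6 cohesin genes *Smc1a*, *Smc3*, *Rad21*, *Stag1*, *Stag2* and *Nipbl*, and the 4 condensin genes *Smc2*, *Smc4*, *Ncapd2* and *Ncapg*. All 10 passed the filter on low values. The control group, *Id2*+/+, came from *Mx1-Cre*; *Id2*+/+ mice, and the other group, *Id2*Δ/Δ, from *Mx1-Cre*; *Id2*Fl/Fl mice. Both groups thus carry the *Mx1-Cre* transgene and received pIpC, which induces Cre through the interferon-responsive *Mx1* promoter in many cell types, not in HSCs alone. Mice were 8 to 16 weeks old, cells were taken 2 weeks after pIpC and sorted as LSK FLT3- CD48- CD150+, and the RNA was pooled from 14 *Id2*+/+ and 15 *Id2*Fl/Fl mice in 2 experiments. Each genotype has 2 libraries (replicates 1 and 2), called control for *Id2*+/+ and knockout for *Id2*Δ/Δ from here on. The labels do not tie a library to an experiment, so p-values measure the spread between these libraries, which may be technical.

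SMC proteins are long coiled-coil ATPases that work in pairs and fold DNA by extruding it into loops. In cohesin, SMC1A and SMC3 form a ring that is closed by the kleisin RAD21 and bound by either STAG1 or STAG2, and NIPBL loads the ring onto chromatin and drives its ATPase. Cohesin shapes chromatin loops in interphase and holds sister chromatids together until anaphase, and its genes are recurrent targets of mutation in myeloid malignancy. In condensin, SMC2 and SMC4 pair instead, and NCAPD2 and NCAPG are HEAT-repeat subunits of condensin I, a form that compacts chromosomes in mitosis.

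Values are the deposited log2 CPM, read counts scaled to library depth. Their distributions nearly coincide in the 4 libraries, as after quantile normalization. Depth, recovered from the steps between low values, was about 14200000 to 18900000 reads per library. The least abundant member, *Ncapg*, rested on about 840 reads in its lowest library, where counting error alone is about 0.0498 on the log2 scale, against a standard error of 0.14 for its fold change. Of *Id2*, the targeted gene, the controls held 93 and 98 reads and each knockout library 0, which allows up to 3 reads. Of 7 HSC markers all were tested, and their sum was 4350 and 4240 CPM in the controls and 2960 and 3490 CPM in the knockout libraries. *Kit*, which weighs most in that sum, was at 11.08 and 10.93 log2 CPM in the control and at 10.19 and 10.55 in the knockout libraries. *Cd48*, a marker that the gate excludes, was at 1.40 to 3.04. *Flt3*, also excluded, was at 5.47 to 5.63. Of the 3 T-cell and 3 B-cell markers looked up, 0 could be tested. Summed over 7 neutrophil markers, replicates 1 and 2 gave 141 and 51.9 CPM for the control and 108 and 25.7 CPM for the knockout, so replicate 1 was the higher library in each genotype. Of 7 erythroid markers, 5 were tested, and the sum of the tested ones was 25.1 to 38.1 CPM. Their part in the results was not tested.

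The order of transcript levels was compared per length, as log2 CPM per kilobase of the longest annotated transcript. *Smc1a* was highest, at 6.03 ± 0.15 (SD, n = 2) in control and 6.19 ± 0.21 (SD, n = 2) in knockout HSCs, and its 4 libraries lay above those of every other member. *Smc4* came second, at 5.42 ± 0.03 (SD, n = 2) in control and 5.62 ± 0.18 (SD, n = 2) in knockout HSCs, and was also apart from the next member. Below these came *Stag2*, *Ncapd2*, *Smc3*, *Rad21*, *Nipbl*, *Smc2*, *Stag1* and *Ncapg*, and each of them overlapped its neighbour in that order over the 4 libraries. The means of this range ran from 5.25 for *Stag2* to 4.09 for *Ncapg* over all libraries. With the union of all exons as the length, a choice made after the values were seen, *Smc1a* and *Smc4* kept the first and second place and *Stag1* became the lowest, at a mean of 3.20. Each complex thus had one SMC partner above the other on this scale, with *Smc1a* over *Smc3* by 0.88 to 1.16 and *Smc4* over *Smc2* by 1.02 to 1.45 across the 4 libraries.

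To compare the genotypes, limma was fitted to 15895 genes, those whose mean reached 1 CPM, with genotype as the only term, and p-values were adjusted by the Benjamini-Hochberg method over all of them. An adjusted p-value under 0.05 was reached by 0 genes (0% of those tested), the smallest being 0.910. The targeted gene *Id2* was among those not called, at a log2 fold change of -7.31 (unadjusted p = 0.000181, adjusted p = 0.910, limma). A missing call therefore does not show that a gene is unchanged. An unadjusted p-value under 0.05 was found for 742 genes (4.67%). Of the 10 members, 0 passed the adjusted threshold and 1, *Stag1*, had an unadjusted p-value under 0.05, on the lower side, where 2.95% of tested genes had one (1.72% on the higher side). In 34.8% of all tested genes the libraries of the genotypes did not overlap, against 5 of the 10 members, so the members' share has to be read against that background. Of the 4 members whose knockout libraries both lay above both controls, 3 were condensin genes, and 19% of all tested genes showed that order. The lower order, found in 15.8% of tested genes, was seen for *Stag1*. With 2 libraries per genotype the smallest two-sided p that exact permutation allows is 0.33. In pooled RNA, fewer cells expressing a gene and less RNA per cell cannot be told apart.

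**Figure D1:**
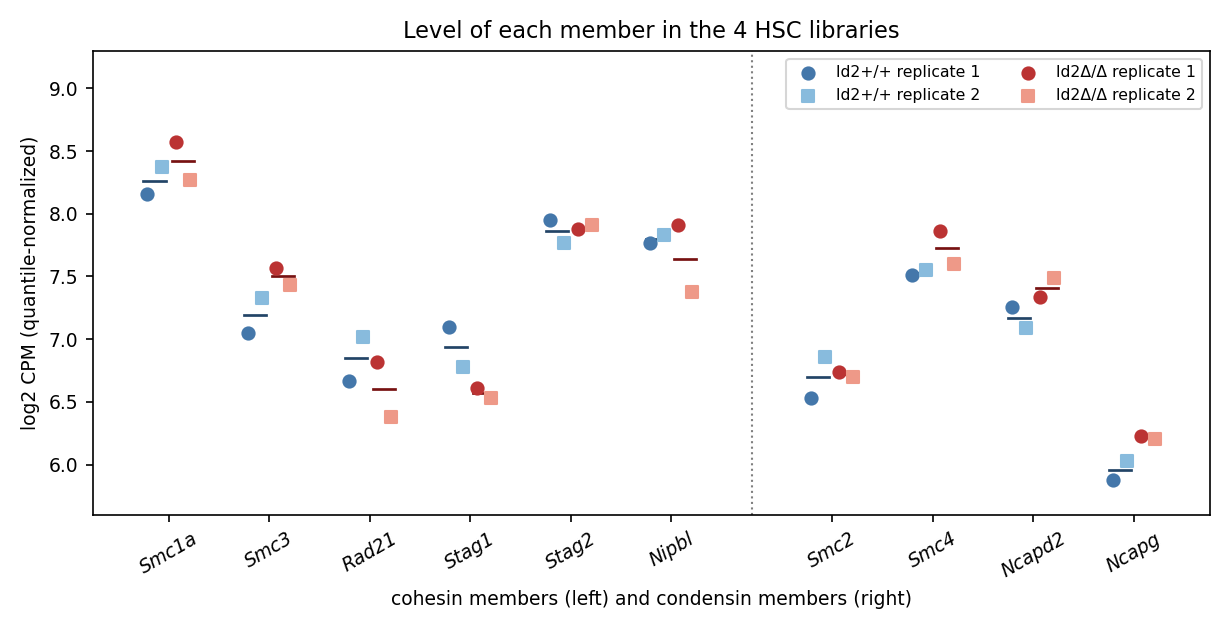
Level of each member in log2 CPM (vertical axis) in each library, with a short bar at the mean of the 2 libraries of a genotype, blue for control and red for knockout. Red and blue points separate for *Smc3*, *Stag1*, *Smc4*, *Ncapd2* and *Ncapg* and mix for the remaining 5 members.

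The SMC pair of cohesin was described first. *Smc3* (ENSMUSG00000024974.10, chromosome 19 of GRCm38 from 53600398 to 53645833, plus strand) was at 7.05 and 7.33 log2 CPM in the control libraries and at 7.57 and 7.43 in the knockout libraries. Both knockout libraries lay above both controls. The nearest values of the genotypes, 7.33 and 7.43, were closer together than the controls were. The log2 fold change was 0.31 (standard error 0.14, 95% interval -0.01 to 0.64), with an unadjusted p of 0.0569 and an adjusted p of 0.910 from limma. After a correction of each library for a trend with transcript length it was 0.35, with an unadjusted p of 0.0403 from limma. Its partner *Smc1a* (ENSMUSG00000041133.11, chromosome X from 152016428 to 152062694, plus strand) was at 8.16 and 8.37 in the control and at 8.57 and 8.27 in the knockout libraries. One knockout library was the highest of the 4 and the other lay between the controls, with a log2 fold change of 0.15 (interval -0.17 to 0.48, adjusted p = 0.910, limma).

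The kleisin gene *Rad21* and the loader gene *Nipbl* varied most within the knockout genotype. *Rad21* (chromosome 15 from 51962240 to 51991747, minus strand) was at 6.67 and 7.02 log2 CPM in the control and at 6.82 and 6.38 in the knockout libraries. Replicate 2 was the higher control and the lower knockout library. The log2 fold change of *Rad21* was -0.25 (interval -0.70 to 0.20, adjusted p = 0.910, limma), and it ran from -0.47 to -0.03 when each library was left out. *Nipbl* (chromosome 15 from 8290617 to 8444463, minus strand) was at 7.77 and 7.83 in the control and at 7.91 and 7.38 in the knockout libraries, so the knockout libraries lay on either side of the controls. The log2 fold change of *Nipbl* was -0.16 (interval -0.57 to 0.25, adjusted p = 0.924, limma), and without knockout replicate 2 it was 0.10. Set against *Smc3* in the same library, *Rad21* was lower by 0.38 and 0.31 in the control and by 0.76 and 1.06 in the knockout libraries, a pair that was chosen after the values were seen.

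The STAG paralogs, of which a cohesin ring holds either one, gave unlike values. *Stag1* (ENSMUSG00000037286.15, chromosome 9 from 100597798 to 100959375, plus strand) was at 7.10 and 6.78 log2 CPM in the control libraries and at 6.61 and 6.53 in the knockout libraries. Both knockout libraries lay below both controls, and the nearest values of the genotypes were closer to each other than the controls were to one another. The log2 fold change was -0.37 (standard error 0.15, interval -0.72 to -0.02, unadjusted p = 0.0401, adjusted p = 0.910, limma), and leaving out each library gave -0.53 to -0.21. After the length correction it was -0.30, with an unadjusted p of 0.0866 from limma. *Stag2* (chromosome X from 42149317 to 42277185, plus strand) was at 7.95 and 7.77 in the control and at 7.88 and 7.91 in the knockout libraries. Both knockout values of *Stag2* lay between the controls, with a log2 fold change of 0.03 (interval -0.24 to 0.30, adjusted p = 0.967, limma). The excess of *Stag2* over *Stag1* within a library was 0.85 and 0.99 in control and 1.27 and 1.37 in knockout HSCs on the log2 CPM scale. This difference between members, also chosen after the values were seen, did not overlap between the genotypes and was not tested.

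Among the condensin genes, the SMC pair comes before the HEAT-repeat subunits. *Smc4* (ENSMUSG00000034349.14, chromosome 3 from 69004738 to 69034623, plus strand) was at 7.51 and 7.55 log2 CPM in the control and at 7.86 and 7.60 in the knockout libraries. Both knockout libraries were above the controls, one of them by little, and the log2 fold change was 0.20 (interval -0.10 to 0.50, adjusted p = 0.910, limma). *Smc2* (chromosome 4 from 52439243 to 52488260, plus strand) was at 6.53 and 6.86 in the control and at 6.74 and 6.70 in the knockout libraries, both of which lay between the controls. Its log2 fold change was 0.03 (interval -0.32 to 0.37, adjusted p = 0.983, limma), and without control replicate 1 it was -0.14.

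*Ncapd2* (ENSMUSG00000038252.13, chromosome 6 from 125168007 to 125191701, minus strand) was at 7.26 and 7.09 log2 CPM in the control and at 7.34 and 7.49 in the knockout libraries. Both knockout libraries were above the controls. The nearest values of the genotypes, 7.26 and 7.34, were closer together than the replicates of either genotype. The log2 fold change was 0.24 (standard error 0.13, interval -0.06 to 0.54, unadjusted p = 0.0996, adjusted p = 0.910, limma). *Ncapg* (ENSMUSG00000015880.13, chromosome 5 from 45669919 to 45700546, plus strand) was at 5.88 and 6.03 in the control and at 6.23 and 6.20 in the knockout libraries. The knockout libraries were close to each other and above both controls, and the log2 fold change was 0.26 (standard error 0.14, interval -0.07 to 0.59, unadjusted p = 0.108, adjusted p = 0.910, limma). On the opposite strand, *Lcorl* shares 944 exonic bases with *Ncapg*, and without knowledge of strand use their reads cannot be told apart there. *Lcorl* had a log2 fold change of -0.30 (adjusted p = 0.910, limma), of the opposite sign to *Ncapg*.

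Promoter windows are shown for the members whose libraries did not overlap and for which a window was found. The choice rests on these same values, and libraries of 34.8% of all tested genes did not overlap either. RefSeq windows on GRCm38.p6, from 250 bases before to 50 bases after the annotated start, were found for 6 of the 10 members, not for *Rad21*, *Stag2*, *Nipbl* and *Smc4*. Each is written 5′ to 3′ on the strand of the gene, and that of *Stag1* starts inside the longer span that GENCODE gives this gene. Capitals mark TTTGAA, the core of the cell cycle genes homology region (CHR) of late cell-cycle promoters, and CCAAT, the box bound by NF-Y, each on either strand (TTCAAA and ATTGG in reverse).
Ncapg, chr5:45669675-45669974, plus strand: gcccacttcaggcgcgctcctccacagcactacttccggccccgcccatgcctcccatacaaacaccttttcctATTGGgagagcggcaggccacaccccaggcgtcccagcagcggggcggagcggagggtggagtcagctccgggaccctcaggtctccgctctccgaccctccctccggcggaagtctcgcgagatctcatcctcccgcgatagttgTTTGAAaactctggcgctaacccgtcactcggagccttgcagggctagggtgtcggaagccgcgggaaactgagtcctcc
Ncapd2, chr6:125191537-125191836, minus strand: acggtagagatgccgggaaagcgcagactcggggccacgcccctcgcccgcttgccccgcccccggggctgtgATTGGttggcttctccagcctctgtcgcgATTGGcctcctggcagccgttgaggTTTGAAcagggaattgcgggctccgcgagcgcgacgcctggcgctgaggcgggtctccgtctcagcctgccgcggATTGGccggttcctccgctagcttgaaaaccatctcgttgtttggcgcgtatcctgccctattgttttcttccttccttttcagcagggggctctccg
Smc3, chr19:53600146-53600445, plus strand: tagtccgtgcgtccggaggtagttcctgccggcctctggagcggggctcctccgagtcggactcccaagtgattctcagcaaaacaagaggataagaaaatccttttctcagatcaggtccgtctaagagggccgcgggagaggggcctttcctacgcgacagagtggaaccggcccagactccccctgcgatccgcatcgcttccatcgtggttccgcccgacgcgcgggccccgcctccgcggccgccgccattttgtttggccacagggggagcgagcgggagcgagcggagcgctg
Stag1, chr9:100643198-100643497, plus strand: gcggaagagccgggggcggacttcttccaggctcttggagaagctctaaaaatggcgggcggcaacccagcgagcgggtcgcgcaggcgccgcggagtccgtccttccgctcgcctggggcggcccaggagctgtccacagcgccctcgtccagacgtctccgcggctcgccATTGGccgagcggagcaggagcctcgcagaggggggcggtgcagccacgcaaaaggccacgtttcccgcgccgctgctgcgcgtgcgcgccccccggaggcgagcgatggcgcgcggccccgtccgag
In *Ncapg* the TTTGAA begins at -30 from the start, with one CCAAT at -176. In *Ncapd2* it begins at -123, among 3 CCAAT boxes at -177, -148 and -48. The *Smc2* window holds the same letters on the reverse strand at -145 and 27. TTTGAA was thus in all 3 condensin windows and in 0 of the 3 cohesin windows, where 17.9% of 32851 windows of this length hold it, and CCAAT was in all 3 condensin windows and in those of *Smc1a* and *Stag1*, against 37.4% of windows. The CHR variant TTCGAA (1.56% of windows) and the E2F letters GGCGGGAA (2.19% of windows) had no match in the 6 windows. A match of letters is a description and does not show that a factor binds there.

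Set side by side, the members of condensin shared one sign and those of cohesin did not. All 4 condensin genes had a positive log2 fold change, from 0.03 to 0.26 with a median of 0.22, while the 6 cohesin genes were split, 3 positive and 3 negative, from -0.37 to 0.31 with a median of -0.06. The signs of *Smc2* and *Stag2*, both at 0.03, and of *Nipbl*, at -0.16, changed with a library left out. Over all tested genes the median was 0.01 and 51.7% were positive. Relative to each gene's own mean, the median of the condensin members was -0.15 and -0.07 in the control libraries and 0.09 and 0.06 in the knockout libraries. The cohesin median was 0.00 and 0.03 in the control libraries, 0.14 in knockout replicate 1 and -0.15 in knockout replicate 2. The knockout libraries were thus the highest and the lowest of the 4 for cohesin, and close to each other for condensin.

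**Figure D2:**
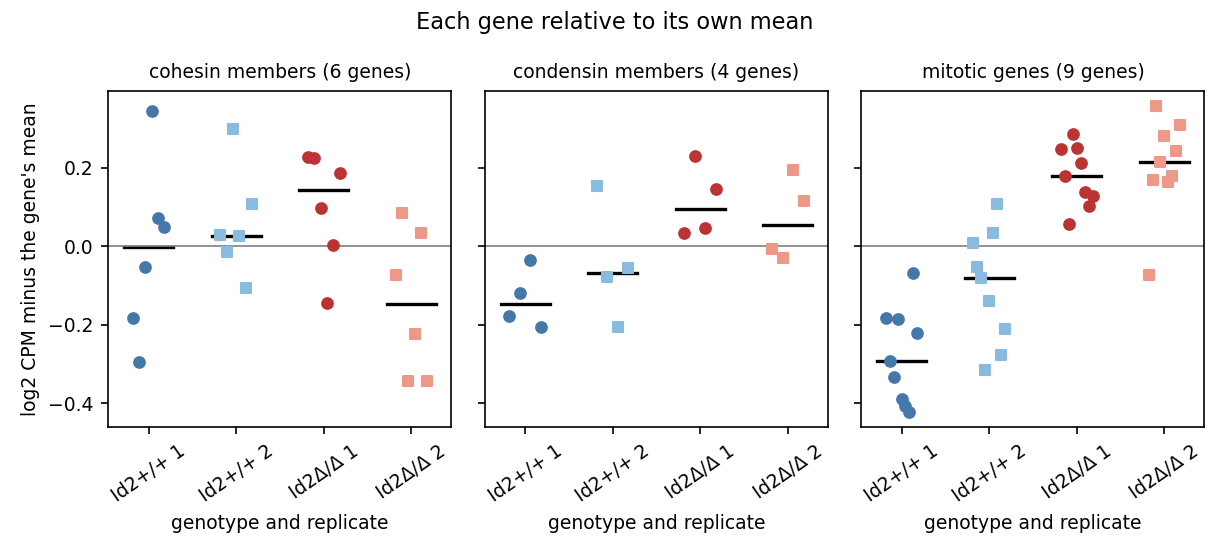
Log2 CPM minus the gene's own mean (vertical axis) in each library, 1 point per gene, with a bar at the median, for the cohesin members, the condensin members and 9 mitotic genes. Condensin bars are at -0.15 and -0.07 in control and at 0.09 and 0.06 in knockout, and the cohesin bars of the knockout libraries, 0.14 and -0.15, lie on either side of the controls.

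The excess of condensin over cohesin, taken as the difference of these medians within a library, was -0.15 and -0.09 in the control libraries and -0.05 and 0.20 in the knockout libraries. The SD of these within-library differences between replicate libraries was 0.13. Taken instead as a difference of median log2 fold changes, a measure that this SD does not describe, the excess was 0.28. It was 0.15 without knockout replicate 2 and 0.36 without knockout replicate 1, so its size rests in large part on knockout replicate 2. The cohesin median itself changed sign with that library left out (0.06), with *Nipbl* left out (0.03) and after the length correction (0.04). The condensin median was 0.16 to 0.22 with each library left out and 0.25 after the length correction. No test was made of either median, because the members were proposed with results of these data known.

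**Figure D3:**
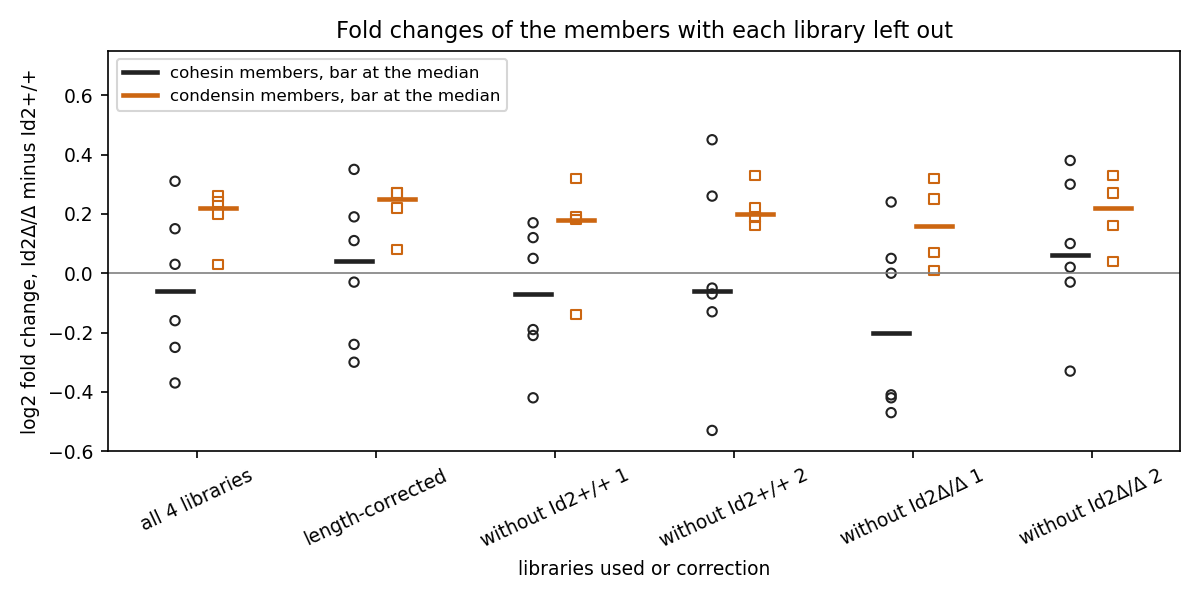
Log2 fold change, knockout minus control (vertical axis), of the cohesin members (circles) and condensin members (squares), with a bar at each median, from all 4 libraries, after the length correction and with each library left out. The condensin bar stays between 0.16 and 0.25, and the cohesin bar lies between -0.20 and 0.06.

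The remaining condensin subunits were read next. NCAPH is the kleisin of condensin I, and NCAPD3, NCAPG2 and NCAPH2 complete condensin II, which is nuclear through interphase. The 4 genes had positive log2 fold changes, 0.25 for *Ncaph*, 0.17 for *Ncapd3*, 0.10 for *Ncapg2* and 0.21 for *Ncaph2*, and 0 had an unadjusted p-value under 0.05. *Ncaph2* had the smallest p-value of them. It was at 7.52 and 7.53 log2 CPM in the control and at 7.74 and 7.73 in the knockout libraries, so that replicates nearly coincided and the genotypes were apart (interval of the fold change -0.04 to 0.46, adjusted p = 0.910, limma). Libraries of *Ncaph* did not overlap either, while those of *Ncapd3* and *Ncapg2* did. In the RefSeq windows of these genes, TTTGAA began at -18 and GGCGGGAA at -250 in *Ncapg2*, TTCGAA began at -22 in *Ncaph2*, *Ncaph* had no match, and of the windows listed for *Ncapd3* one held TTTGAA on the reverse strand at -249. CCAAT, found in the windows of the condensin members above, was in none of these windows on either strand. Over the 8 condensin subunits, 8 were positive, where 51.7% of all tested genes were. The libraries of 5 did not overlap, all with knockout above the controls, an order that 19% of all tested genes showed. Members and lists were chosen with earlier results of these data known, so these counts cannot be weighed against those shares.

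The 13 cohesin regulators, which load, release, acetylate, protect or cleave the ring or stop its sliding, had 8 positive and 5 negative log2 fold changes. Their median was 0.12, and 51.7% of all tested genes were positive. Of the 13, 1 had an unadjusted p-value under 0.05, on the lower side, where 2.95% of tested genes had one (4.67% in either direction). This was *Pds5b*, whose product binds the ring and takes part in both its release and its protection, at 7.57 and 7.55 log2 CPM in the control and at 7.23 and 7.26 in the knockout libraries. Its log2 fold change was -0.31 (standard error 0.11, interval -0.57 to -0.05, unadjusted p = 0.0269, adjusted p = 0.910, limma). *Pds5b* ran from -0.32 to -0.29 with each library left out and was -0.21 after the length correction. *Mau2*, the partner of NIPBL in the loader, was at 0.07, *Wapl*, which releases the ring, at -0.04, and *Ctcf*, at which loop extrusion stops, at 0.13, each with overlapping libraries.

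**Figure D4:**
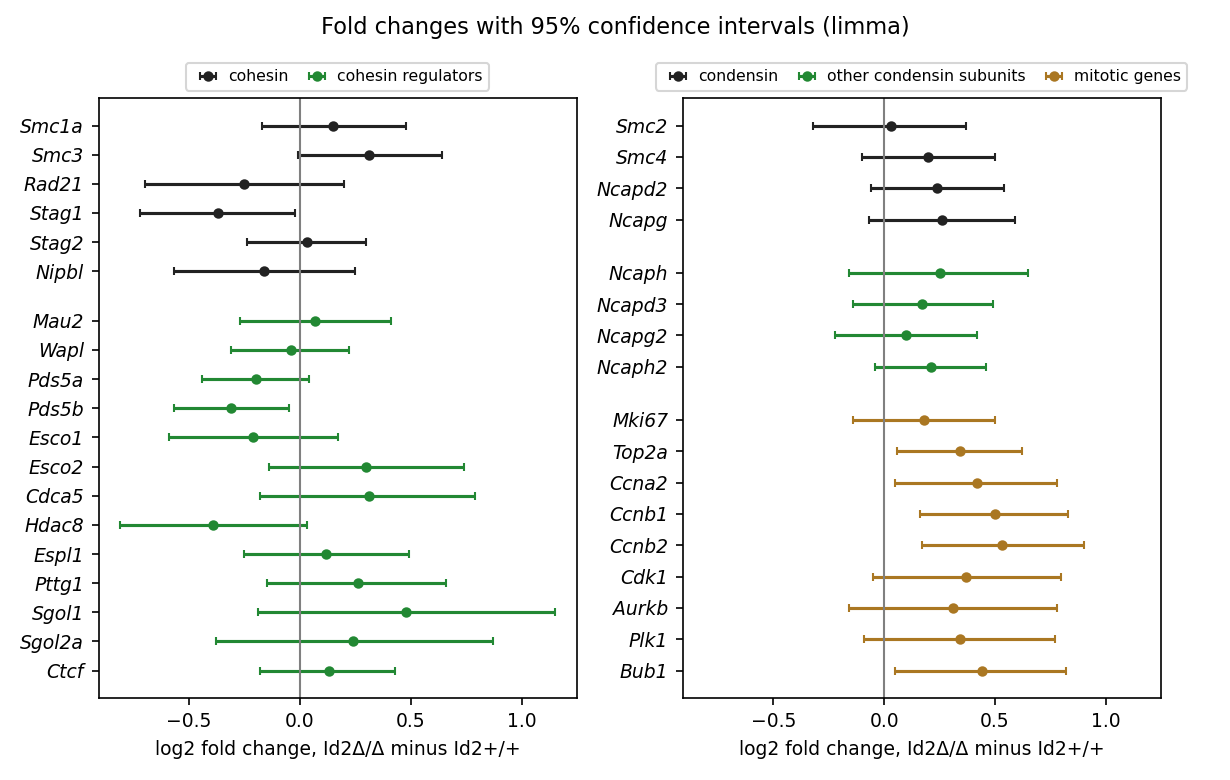
Log2 fold change, knockout minus control (horizontal axis), with its 95% confidence interval from limma, for the cohesin members and regulators (left) and for the condensin members, other condensin subunits and mitotic genes (right). Every gene on the right is at or above 0.03, and those on the left run from -0.39 to 0.48.

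Of the meiotic cohesin genes, *Rad21l* had no row in the table used here and 3 were tested. *Stag3* had the smallest p-value, at 2.43 and 2.47 log2 CPM in the control and at 1.68 and 1.98 in the knockout libraries, with a log2 fold change of -0.62 (interval -1.5 to 0.26, adjusted p = 0.910, limma). *Rec8*, the meiotic kleisin, was present at 5.28 to 5.45 log2 CPM over the 4 libraries, with a log2 fold change of 0.03, and *Smc1b* varied from -1.66 to 1.5. The third SMC complex, SMC5/6, and the related SMCHD1 gave 9 tested genes, 5 positive and 4 negative, with a median of 0.01 and 0 at an unadjusted p-value under 0.05. *Nsmce1*, a ubiquitin ligase subunit of SMC5/6, had the smallest p-value, at 5.75 and 5.76 in the control and at 6.20 and 5.95 in the knockout libraries. Its log2 fold change was 0.32 (interval -0.04 to 0.68, adjusted p = 0.910, limma). The SMC subunits themselves were at 0.06 for *Smc5* and 0.01 for *Smc6*.

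Condensin acts in mitosis, so mitotic genes were read in the same libraries. All 9 had positive log2 fold changes, from 0.18 to 0.53 with a median of 0.37, and for 8 of them both knockout libraries lay above both controls, against 19% of all tested genes. Of the 9, 5 had an unadjusted p-value under 0.05 on the higher side, where 1.72% of tested genes had one, and 0 passed the adjusted threshold. These were *Top2a* at 0.34, *Ccna2* at 0.42, *Ccnb1* at 0.50, *Ccnb2* at 0.53 and *Bub1* at 0.44, each with an adjusted p of 0.910 from limma. The list was chosen with earlier results of these data known. The paper already reports higher *Ccnb1*, *Ccnb2* and *Cdk1* in its RNA-Seq of HSCs without *Id2*. The counts for this list therefore cannot be weighed against the shares over all tested genes. The summed level of the 9 genes was 905 and 1050 CPM in the control and 1240 and 1200 CPM in the knockout libraries, and that of the 4 condensin members was 487 and 505 against 576 and 552 CPM. Both sums were thus above the controls in both knockout libraries, and the part of the mitotic genes in the condensin values was not tested. For cohesin the sums were 1120 and 1180 CPM in control and 1260 and 1060 CPM in knockout HSCs, which overlap.

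The genes whose centred profile over the 4 libraries was most like the mean profile of a complex were sought among 7367 genes of at least 32 CPM, by root mean square distance. For condensin they included *1110038F14Rik* and *Pgp*, at distances of 0.00863 and 0.0119. For cohesin they were *Aff3*, *Matr3* and *N4bp1*, at 0.0113, 0.0137 and 0.0139. Over only 4 libraries, these distances are a description.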

How the data were processed

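RNA-Seq of sorted HSCs gave 4 libraries, 2 per genotype. The authors deposited log2 CPM values, 1 column per library, and the unit was read from the values: taken back from log2 they sum to 999980 to 999996, and after sorting each column, 88.4% of ranks hold values within 0.1 of each other, as after quantile normalization. The submitters' processing notes name CASAVA 1.8.4, Trimmomatic 0.30, TopHat2 2.0.8, RSEM and STAR and the builds mm9 and NCBIM37, without their roles, and 82.3% of the matched identifiers carry the versions of GENCODE M21, an annotation of GRCm38. Coordinates and lengths are from GENCODE M21, matched by Ensembl identifier (99.7% of genes). Strand use and the counting of shared reads are not given in the sources used here. The normalization step itself is not given in the sources used here, and with like distributions in every library each value is relative to all genes. Reads are the rank of a distinct value in its library, and depth is the median of reads per CPM at log2 values of 3 to 5. The counting error and the limit of 3 reads cover counting only, while the intervals of fold changes are from limma and rest on the spread between libraries.

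Genes whose mean reached 1 CPM were fitted on the log2 values, without a pseudocount, by limma 3.58.1 in R 4.3.3 (lmFit, eBayes with an intensity trend), two-sided, with Benjamini-Hochberg adjustment. The code was tested on simulated data. The length correction took off a natural spline with 5 degrees of freedom fitted to each library's deviations. All members were named, and from each further list the genes with an unadjusted p-value under 0.05 or, failing that, the smallest p-value. A few genes under this rule are not reported here. Others are named to describe a list and were chosen after their values were seen. The members and lists were chosen with earlier results of these data known.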

Additional observations from a re-analysis of the deposited data

How the results depend on the processing

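The alternatives were a pseudocount of 0.1 or 1 CPM, no filter or a mean of at least 10 CPM, median-ratio or upper-quartile rescaling, no intensity trend, the transcript length correction, the replicate block with and without that correction, and each library left out in turn. In fits that left a genotype with 1 library, that library is assumed to vary like the other genotype's. Under these 14 settings 0 members passed an adjusted p-value under 0.05. The sign of the log2 fold change held for all members except *Smc2* without control replicate 1 (-0.14), *Stag2* without control replicate 2 (-0.05) and *Nipbl* without knockout replicate 2 (0.10), and with a library left out these 3 ranged from -0.14 to 0.19, -0.05 to 0.12 and -0.42 to 0.10. *Stag1* had an unadjusted p-value under 0.05 in 8 of the 14 settings, *Smc3* in 3, and *Nipbl* (0.00786) and *Ncapd2* (0.0481) without knockout replicate 1 and *Smc4* (0.0176) without knockout replicate 2 in 1 each. Over all genes, those under an unadjusted p of 0.05 numbered 196 to 2516 with a library left out, the latter without knockout replicate 2. The cohesin median ranged from -0.20 to 0.06, the condensin median from 0.16 to 0.22 and their difference from 0.15 to 0.36 in those fits, and the difference was 0.19 without *Nipbl* and 0.23 from means. The cause was not tested. The labels give same-numbered libraries no shared source, and their deviations correlated at 0.0592 across all tested genes and at 0.144 across the 7377 genes of at least 32 CPM. With the replicate block 1 gene was called, *C130089K02Rik*, and no member's call changed.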

Other observations

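Divided after their values were seen, the 13 cohesin regulators fell into groups that differed in sign. The 6 that act in S phase or mitosis were all positive, with log2 fold changes of 0.30 for *Esco2*, the S-phase acetyltransferase of SMC3, 0.31 for *Cdca5*, which encodes sororin, 0.12 for *Espl1*, which encodes separase, 0.26 for its inhibitor *Pttg1*, 0.48 for the shugoshin gene *Sgol1* and 0.24 for *Sgol2a*. Knockout libraries lay above both controls for 4 of them, against 19% of all tested genes. Among the remaining 7, 5 were negative, and knockout libraries lay below both controls for 3, against 15.8% of all tested genes. *Hdac8*, which removes the acetyl group from SMC3, was at 5.50 and 5.32 log2 CPM in the control and at 5.13 and 4.90 in the knockout libraries, a log2 fold change of -0.39 (interval -0.81 to 0.03). *Pds5a* was at -0.20 and *Esco1* at -0.21. After the length correction, *Pds5a* was at -0.08 and *Hdac8* at -0.39. None of the 13 passed an adjusted p-value under 0.05 in limma. An unadjusted one under 0.05 was found for 1, *Pds5b*, on the lower side, where 2.95% of tested genes had one. The groups were not tested. They were formed from these values, so their counts cannot be weighed against the shares over all tested genes. The division does not mean that the remaining 7 lack a role in S phase or mitosis.

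HSC markers with an unadjusted p-value under 0.05 in limma included *Kit* and *Hlf*, with log2 fold changes of -0.63 and -0.30. They were on the lower side, where 2.95% of tested genes had one. Of the 7 HSC markers, 5 were negative and 2 positive, with a median of -0.22. The positive ones were *Slamf1* at 0.26, with both knockout libraries above both controls, and *Ly6a* at 0.14. Of 4 megakaryocyte markers, *Pf4* and *Gp1bb* had such a p-value, at 0.65 and 0.75, on the higher side, where 1.72% of tested genes had one. The remaining ones, *Itga2b* at 0.06 and *Vwf* at 0.00, had overlapping libraries. The adjusted p was 0.910 in limma for each of *Kit*, *Hlf*, *Pf4* and *Gp1bb*. The remaining marker lists that were tested held no gene under an unadjusted p of 0.05. Their smallest p-values were those of *Cd48* at -0.79, the neutrophil gene *Elane* at 1.25 and the erythroid gene *Car1* at 0.85, all with overlapping libraries. The lists of the latter pair leaned the other way, with 5 of 7 neutrophil markers negative (median -1.01) and 3 of 5 erythroid markers negative (median -0.39).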
